A study of Drosophila melanogaster with 2 samples.

Results

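The genes of the epidermal growth factor (EGF) receptor of Drosophila melanogaster, its ligands, the proteins that release them and its feedback inhibitors were examined for peaks of Mad-eGFP. They were 10 of 13945 protein-coding genes of the annotation, taken by name, with earlier results of these data known, and no peak value enters the rule. The ligands were spi, Krn and vn, the genes that process ligands were S, rho and ru, the receptor was Egfr, and the inhibitors were aos, kek1 and sty. A summit was counted for a gene when it lay in the gene's annotated span or within 5 kb of it. The samples were 2 biological replicates of 1 group, whole embryos of both sexes pooled, 0 to 24 h of age, from a transgenic line that stably expresses Mad with GFP at its C terminus, with precipitation of the tagged protein through GFP. No second genotype, treatment or stage was compared, and whole embryos mix all cell types and a day of development, so a peak cannot be given to a cell type. The labels do not state which promoter drives the fusion or where the line expresses it, and their antibody field names Mad although the precipitation was through GFP. The replicates carry separate biosample records of 1 line, and whether they were separate collections is not stated.

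The EGF receptor is a receptor tyrosine kinase that acts through Ras and the MAP kinase cascade. Spi and Krn are made as membrane-bound precursors that S carries out of the endoplasmic reticulum and that the Rhomboid proteases, rho and ru among them, cleave to release the active ligand, while Vn is secreted as it is. aos encodes a secreted protein that binds Spi, kek1 a transmembrane protein that binds the receptor, and sty (Sprouty) an intracellular inhibitor, and in the fly all of these inhibitors are known as genes that the pathway itself switches on. Mad is the Smad that carries signals of Dpp, the fly's main BMP, into the nucleus, and in the embryo Dpp and EGF receptor signals pattern the ectoderm side by side.

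Peak signals are the value that the authors' peak caller wrote for each peak. They describe and rank peaks within a list. The sources used here give neither their formula nor the read depth behind them. The list kept by the authors' reproducibility threshold held 3590 peaks, with a median signal of 106 and a lowest of 70.5, and these were the strongest peaks of a pooled list of 30000 that reached down to 20.9. Each replicate had its own list of 30000 peaks, and each kept peak was given the signal of the overlapping replicate peak with the nearest summit. The pooled and replicate lists were deposited as peaks and background together, so a weak peak in them may be background.

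Sequence around 9 summits is shown: the strongest peaks of spi, aos and S, some of those with matches to known sites, and the best peaks of rho. All are on the plus strand of dm6, read from the RefSeq release 6 genome, and are centred on the summit. Capitals mark matches, on either strand, to the motifs sought other than AGAC. The first 3 sequences, of 101 bp, are those of the strongest peaks of spi (chr2L:19575707-19575807), aos (chr3L:16480539-16480639) and S (chr2L:1072336-1072436). The capitals in spi 1 are a GATAAG, the site of GATA factors, and neither of the other two holds a match.
spi 1: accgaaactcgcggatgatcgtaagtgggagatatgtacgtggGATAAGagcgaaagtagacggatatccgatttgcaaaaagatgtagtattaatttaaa
aos 1: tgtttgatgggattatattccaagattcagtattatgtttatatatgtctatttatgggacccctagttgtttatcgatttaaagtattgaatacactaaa
S 1: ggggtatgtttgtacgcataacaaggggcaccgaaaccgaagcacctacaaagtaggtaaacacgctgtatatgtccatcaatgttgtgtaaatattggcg

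The remaining sequences are the full windows, 100 bp to each side of the summit, in which motifs were counted. The second peak of spi (chr2L:19575860-19576060) holds 4 overlapping copies of CAGAC, the reverse of the Smad box GTCTG, which begin 46 bp to the right of the summit. The promoter peak of S (chr2L:1077779-1077979) holds the site of M1BP, here read as AGTGTGACC on its reverse strand, with GGCGCC and CCGGAA beside it. The fourth peak of Krn (chr3L:17644924-17645124) and the second of vn (chr3L:5813129-5813329) each hold TATCGATA, the site of DREF, and a match to GCCGNC and to GTCTG. These summits lie at the promoters of the neighbours Pep and mad2. The best peaks of rho (chr3L:1463737-1463937 and chr3L:1464520-1464720) each hold a match to the GC-rich Mad site GCCGNC. Such a match was found in 15.3% of the windows of all kept summits and in 25.1% of windows 600 bp away.
spi 2: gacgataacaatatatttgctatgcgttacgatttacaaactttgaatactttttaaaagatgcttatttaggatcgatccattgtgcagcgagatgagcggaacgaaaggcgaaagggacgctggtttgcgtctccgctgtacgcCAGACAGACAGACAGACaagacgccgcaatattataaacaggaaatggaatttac
S 3: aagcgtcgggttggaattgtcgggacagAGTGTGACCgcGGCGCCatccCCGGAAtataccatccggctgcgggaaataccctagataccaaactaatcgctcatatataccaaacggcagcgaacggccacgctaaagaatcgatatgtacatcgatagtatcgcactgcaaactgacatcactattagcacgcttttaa
Krn 4: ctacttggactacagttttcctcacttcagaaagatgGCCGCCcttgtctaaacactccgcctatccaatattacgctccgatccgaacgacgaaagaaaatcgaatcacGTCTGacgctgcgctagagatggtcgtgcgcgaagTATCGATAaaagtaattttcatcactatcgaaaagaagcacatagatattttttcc
vn 2: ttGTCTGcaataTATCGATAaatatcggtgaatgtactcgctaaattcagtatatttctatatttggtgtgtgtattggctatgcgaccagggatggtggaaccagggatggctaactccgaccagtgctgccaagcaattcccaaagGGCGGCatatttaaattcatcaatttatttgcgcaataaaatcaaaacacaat
rho 1: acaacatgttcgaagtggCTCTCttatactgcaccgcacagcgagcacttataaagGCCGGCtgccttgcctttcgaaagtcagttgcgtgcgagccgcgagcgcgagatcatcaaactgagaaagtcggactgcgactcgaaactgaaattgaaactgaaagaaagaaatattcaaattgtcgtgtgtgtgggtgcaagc
rho 2: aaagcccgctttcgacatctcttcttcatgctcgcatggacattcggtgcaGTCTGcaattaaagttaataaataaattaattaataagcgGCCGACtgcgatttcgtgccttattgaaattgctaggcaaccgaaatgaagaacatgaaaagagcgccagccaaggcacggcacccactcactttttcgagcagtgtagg

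Of the 10 genes, 7 held a kept summit, and Egfr, rho and kek1 held none. Over all protein-coding genes 45.8% held one, and over the 3159 genes with spans as long as those of the members, 4719 to 37558 bp, 56.6% did. With 10 genes, a share of 7 is close to that background. The range runs from the shortest to the longest member and does not match lengths within it. With all genes cut into 10 classes of equal size by span, vn, S, ru, Egfr and sty fell in the longest class. The shares in the 3 longest classes, where the members lie, were 55.1%, 56.3% and 60.1%, rising with span. Each of the 7 genes held at least 2 kept summits, as did 26.2% of the genes of that span range. spi, Krn and S held 4 each, ru held 3, and vn, aos and sty held 2 each, while 4.05% of the genes of that span range held 4 or more. In all there were 21 kept summits, of which 10 were at the ligand genes, 7 at the processing genes and 4 at the inhibitor genes. They made 0.758 summits per 10 kb over the 277 kb that the extended spans cover, beside 0.412 over the genes of the span range and 0.310 over all protein-coding genes. In the pooled list, in which weaker peaks count too, the members had 4.98 summits per 10 kb and the genes of the span range 3.17. The strongest pooled-list peak in the extended span had a median signal of 154 over the 10 members and of 83.7 over the 3031 genes of the span range that had any. The counts of summits per gene, the densities and this median were not matched for length within the range.

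**Figure D1:**
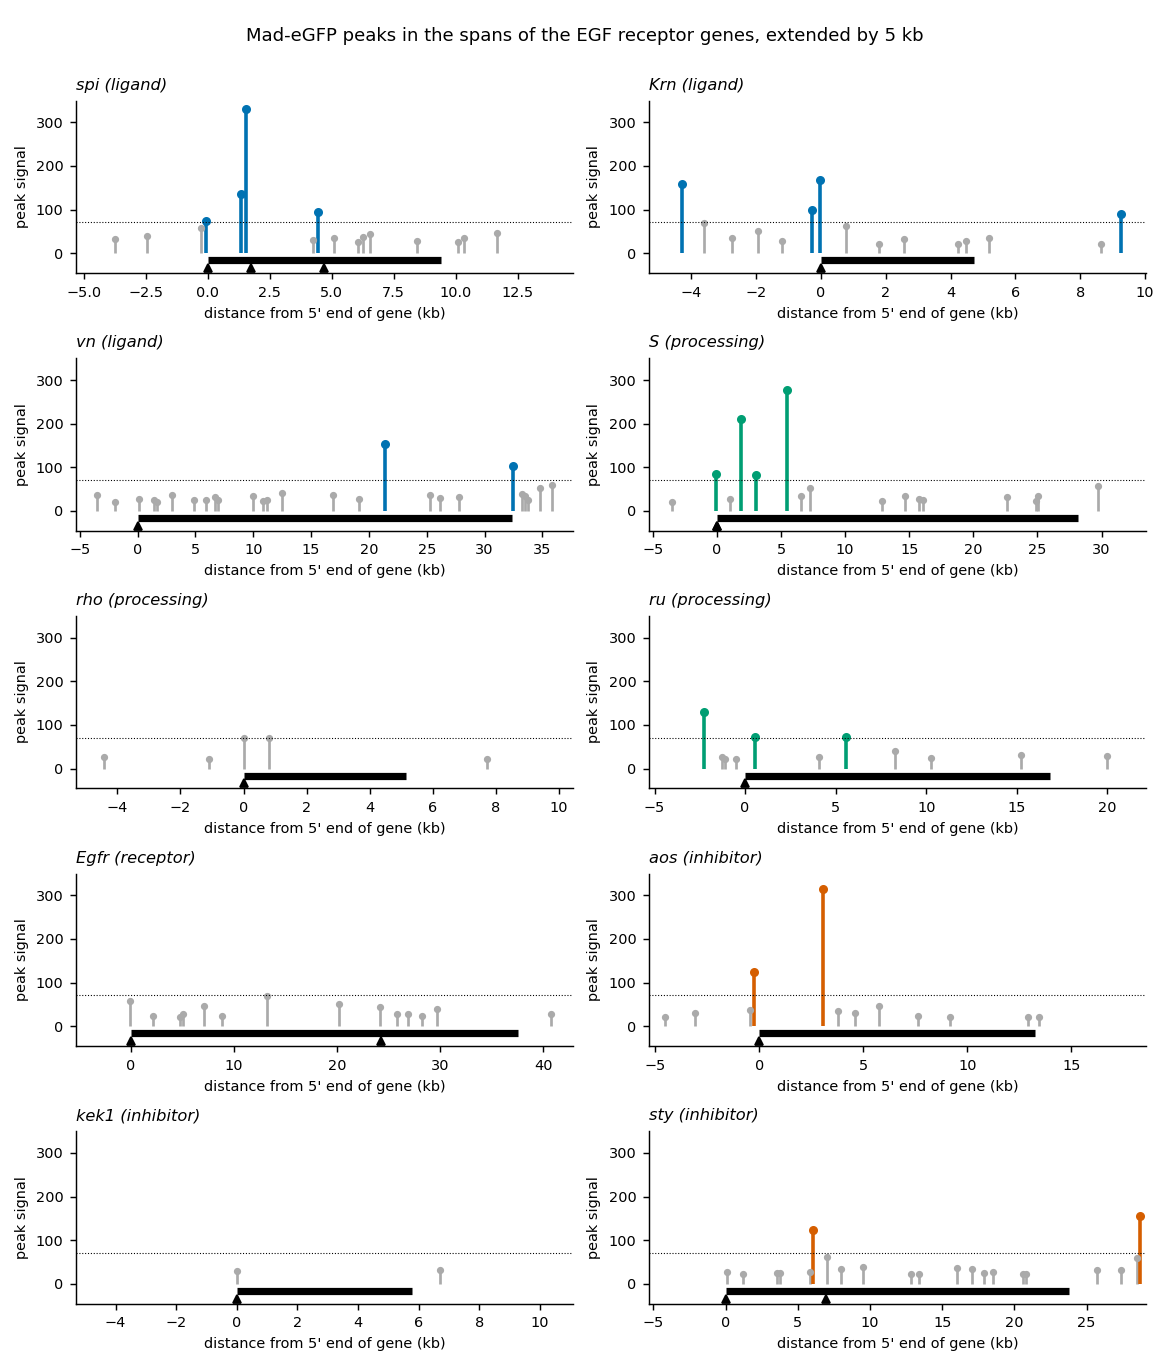
Each panel shows one gene, with the distance of a summit from the 5′ end of the gene along its direction of transcription (kb) on the x axis and the peak signal on the y axis. Coloured stems are kept peaks, grey stems weaker peaks of the pooled list, the dotted line the lowest kept signal of 70.5, the black bar the gene span and triangles its annotated start sites. The tallest stems stand at spi (330), aos (315) and S (278), and the best stems of rho end just under the line.

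spi, the gene of the main embryonic EGF receptor ligand, carried the strongest peak of all the members, and each of its 3 annotated transcription start sites (TSSs) had a kept summit 64 to 241 bp upstream. spi lies on the minus strand of arm 2L at 19567900 to 19577315. The strongest summit, at 19575757 in a peak of 213 bp, was 170 bp upstream of the middle TSS, with a signal of 330 in the kept list, where it ranked 152nd. Replicate 1 gave 152 and replicate 2 gave 180, a mean of 166 ± 19.4 (SD, n = 2), and its rank within the replicate's own list was 146 and 154. A second peak overlapped it by 65 bp with its summit 203 bp further upstream, which is the one with the run of CAGAC copies shown above. It reached 136 in the kept list, and the replicates were nearly equal, at 59.1 and 57.6.

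The most 3′ TSS of spi had a summit 241 bp upstream and 93.9 in signal. The replicates differed 2.11-fold there, from 30.5 in the first to 64.4 in the second, and in replicate 1 this peak ranked 4351st, below the 3590 strongest. The most 5′ TSS had a summit 64 bp upstream and 73.6 in signal, and the replicates gave 42.1 and 36.1. The replicate 2 value comes from a peak whose summit was 135 bp away and which was also the match of a weaker pooled peak of 57.2, 111 bp upstream of the TSS of the neighbour msb1l. The pooled list held 12 more, weaker summits in the extended span of spi, from 25.1 to 57.2.

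Krn, which encodes a ligand like Spi, had its peaks outside the gene: none of its 4 kept summits lay in the span of 17649562 to 17654280 on arm 3L (minus strand). The strongest, with a signal of 168, was 41 bp upstream of its single TSS, and replicates 1 and 2 gave 67.2 and 102. A peak of 99.6 overlapped it by 175 bp, with its summit 262 bp upstream of the TSS of Krn but 75 bp upstream of that of CG7484, which is transcribed away from Krn. The replicates gave 36.8 and 30.7 there. The intergenic summit 4294 bp upstream had a signal of 158, with 57.3 in replicate 1 and 102 in replicate 2, and a weaker peak of 68.6 stood between it and the gene, 3602 bp upstream. The last, of 89.9 (40.4 and 48.0 in the replicates), was 12 bp from the TSS of Pep and so lay at a neighbour's promoter. Of the 4, only the first was nearer to the TSS of Krn than to any other protein-coding TSS.

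vn, which encodes a neuregulin-like ligand, had no kept summit near its own TSS. Its span covers 5813338 to 5845664 of arm 3L on the minus strand. The stronger of its 2 kept summits, at 5824244, lay inside an intron of vn, 21420 bp downstream of the TSS, with a signal of 153. The nearest protein-coding TSS was that of the neighbour mad2, at 11151 bp, and not that of vn. The replicates gave 58.4 and 95.6. The other, at 5813229, lay just past the 3′ end of vn and 136 bp upstream of the TSS of mad2, a gene of the spindle checkpoint that is unrelated to Mad. It reached 102 in the kept list, from 35.4 and 65.7 in the replicates. At the TSS of vn itself the pooled list held a peak of 26.2, ranked 20168th of 30000. It was 1 of 24 weaker summits, of 21.02 to 58.5, spread over the extended span.

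S (Star), which encodes the protein that escorts the ligand precursors, had a cluster of peaks from its TSS to 5.43 kb into the gene. It lies at 1049674 to 1077815 of arm 2L on the minus strand. The strongest summit was in an intron 5425 bp downstream of the TSS, with a signal of 278, and it was 1 of the 6 member peaks stronger in replicate 1, with 147 against 130. The second was in an intron 1886 bp downstream with 210, and the replicates gave 80.5 and 125. An intronic peak 3023 bp downstream had a signal of 81.6 (44.8 and 32.3). The promoter peak, 64 bp upstream of the TSS, had 84.0. The replicates differed 2.12-fold there, at 29.4 and 62.2, and the replicate 1 summit used was 121 bp away.

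rho and ru encode Rhomboid proteases and lie within the span of Ptp61F, a gene at 1342493 to 1475257 of arm 3L that is read from the other strand. rho, the protease whose expression sets where the embryo releases active Spi, had no kept summit, but its best peaks fell just below the threshold. They ranked 3628th and 3711th in the pooled list, with signals of 70.04 and 68.99 against a lowest kept signal of 70.53. The first was 26 bp downstream of the TSS of rho, at 1463837, and had 41.0 in replicate 1 and 34.6 in replicate 2. The second was 809 bp downstream in an intron and had 38.6 and 30.4. Both ranked among the 3590 strongest peaks of replicate 1, at 2519th and 2817th, and neither did in replicate 2, at 4476th and 5453rd. The other 3 pooled-list peaks of rho had signals of 21.03 to 27.6.

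ru, a protease that acts with rho, held 3 kept summits, all nearer to its own TSS than to that of any other protein-coding gene. The strongest was 2281 bp upstream of the TSS, within Ptp61F, with a signal of 129, and the replicates gave 48.1 and 81.3. Its rank among the kept peaks depended on the replicate: it stood at 34.2% of them from the top in the kept list, at 53.0% by replicate 1 alone and at 27.0% by replicate 2 alone. The other two, 533 bp and 5557 bp downstream, had 71.62 and 71.61 and were among the last kept, at ranks 3498 and 3499. They had 34.8 and 38.1, and 33.2 and 36.9, in replicates 1 and 2. ru was the only member with no pooled-list summit within 500 bp of any of its TSSs. This rests on the cutoff, since the kept summit 533 bp downstream and a weaker one of 22.5, 504 bp upstream, lay just outside it. The weakest kept peaks of ru, at 71.62 and 71.61, and the best peak of rho left out, at 70.04, thus stood close together on either side of the threshold.

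**Figure D2:**
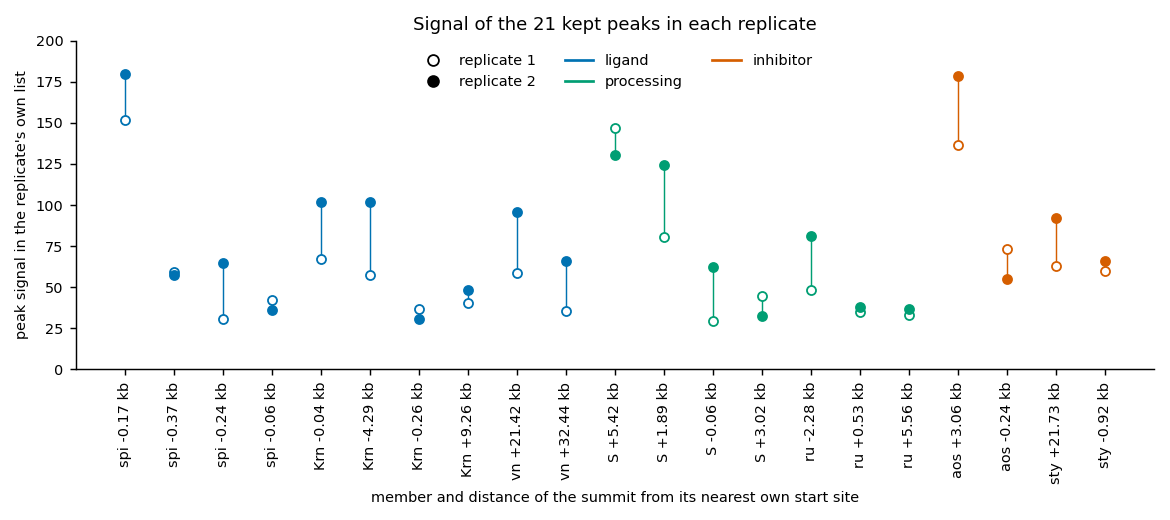
Signal of each of the 21 kept peaks in replicate 1 (open circles) and replicate 2 (filled circles), from the replicates' own lists, on the y axis, with the gene and the distance of the summit from its nearest own start site on the x axis (minus is upstream). Circles are joined for 1 peak, and colours give the role of the gene. Replicate 2 is above replicate 1 at 15 of the 21 peaks. The strongest peaks of spi, S and aos are above 130 in both replicates and stand apart from the rest in replicate 1. In replicate 2 the second peak of S, at 125, comes close to the strongest of S, at 130.

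aos, the secreted inhibitor, had the second strongest peak of the members, in its intron. It lies at 16470386 to 16483650 of arm 3L on the minus strand, inside an intron of CG33158, which is read from the other strand. The summit at 16480589 was 3061 bp downstream of the single TSS, in a peak of 224 bp with a signal of 315 and rank 162. Replicate 1 gave 136 and replicate 2 gave 179, a mean of 158 ± 29.9 (SD, n = 2). The other kept summit was 243 bp upstream of the TSS with a signal of 124. There replicate 1 was higher, with 73.4 against 54.8, and the replicate 2 peak, whose summit lay 139 bp away, was also the match of a weaker pooled peak of 36.96. That promoter window was the most AT-rich of all 21, with 16.4% G and C.

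sty, the Sprouty gene, at 3401153 to 3424935 of arm 3L on the minus strand, held 2 kept summits. The stronger, with 155 in the kept list, was intergenic, past the 3′ end of the gene and 28.7 kb from its 5′ end. Its summit, at 3396232, lay almost 5 kb past that 3′ end, so an extension of 1 kb leaves it out. The replicates gave 62.9 and 92.1. No protein-coding TSS was near it, the nearest being that of Ids at 17964 bp. The other was in an intron, 921 bp upstream of the inner of the 2 TSSs of sty, with a signal of 124 and replicate values of 59.6 and 66.2. At that inner TSS itself, a peak of 61.5 was below the threshold, and at the outer TSS the peak had 27.5. kek1, at 12817000 to 12822787 of arm 2L, had the least of all members: 2 pooled-list peaks of 32.1 and 30.2, the second of them 9 bp from its TSS. Their replicate values were 17.5 and 12.2 for the first and 14.2 and 17.5 for the second, and no peak of kek1 was among the 3590 strongest of either replicate.

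Egfr, the receptor gene, held 14 pooled-list summits and no kept one. It lies on the plus strand of arm 2R at 21522420 to 21559977. The highest, in an intron at 21535626 and 1169 bp from the TSS of the nested gene CG30286, had 68.2 and rank 3787, or 96.7% of the lowest kept signal. The replicates gave 26.2 and 40.9. Both annotated TSSs of Egfr had a weaker peak close by. The peak 91 bp upstream of the outer TSS had 58.2 (34.6 and 23.2 in the replicates), and the one 20 bp upstream of the inner TSS had 43.5. The latter overlapped a peak of 36.4 in replicate 2 and none in the list of replicate 1.

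The list of genes with a peak depended on the replicate at Egfr and rho. When the 3590 strongest peaks of replicate 2 alone were taken, without replicate 1, 8 members held a summit, the 7 above and Egfr. With those of replicate 1 alone, without replicate 2, 9 did, since rho joined them. Egfr was included on a different peak each time, the outer promoter in replicate 1 and the intron in replicate 2, and in both lists its best peak happened to rank 3372nd. The 3590th peak stood at 33.5 in the list of replicate 1 and at 39.5 in that of replicate 2. kek1 stayed without a peak in each of these lists.

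**Figure D3:**
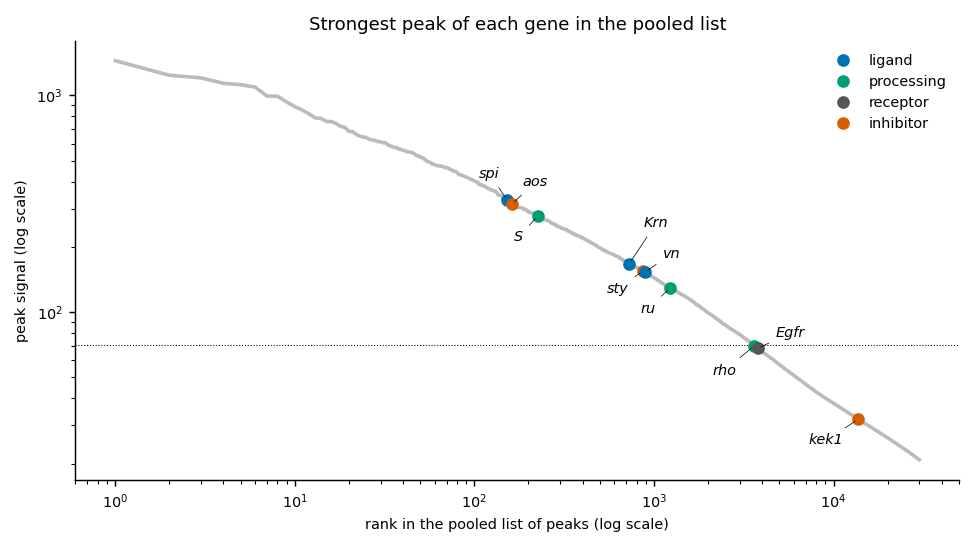
Signal of the 30000 peaks of the pooled list (grey line) against their rank, both on log scales, with the strongest peak of each member as a coloured point and the lowest kept signal of 70.5 as a dotted line. spi, aos and S lie between ranks 152 and 225, Krn, sty, vn and ru between 729 and 1226, rho and Egfr at 3628 and 3787 just below the line, and kek1 at 13716.

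At start sites, 4 of the 10 members (spi, Krn, S and aos) held a kept summit within 500 bp of an own TSS, beside 19.7% of all protein-coding genes. With the pooled list, 9 of the 10 members did, beside 55% of all protein-coding genes. Neither share was matched for span or for the number of TSSs, of which each member had 1 to 3. Of the 15 annotated TSSs of the members, 7 had a kept summit, 7 a weaker one only, and 1 none. The TSSs of S, at 1077815 and 1077811, share 1 kept summit, which is counted at each. The members at 0 kept summits near a TSS mostly had a weaker pooled-list peak there, which may be background. These were 70.04 at rho, 61.5 and 27.5 at sty, 58.2 and 43.5 at Egfr, 30.2 at kek1 and 26.2 at vn. The lowest signal of that list was 20.9.

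**Figure D4:**
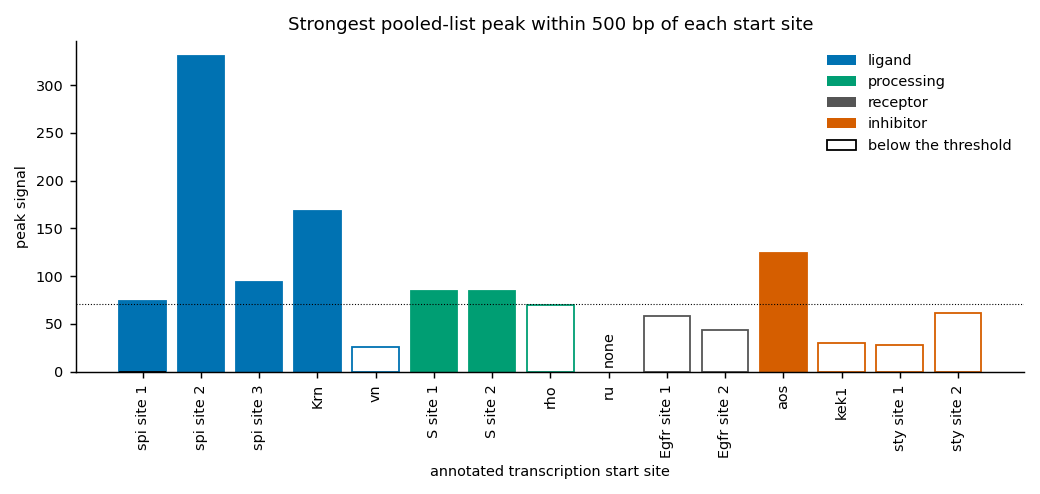
Bars give the signal of the strongest pooled-list peak within 500 bp of each of the 15 annotated start sites of the members, numbered from the 5′ end of the gene. Filled bars are kept peaks, open bars weaker ones, and the dotted line is the lowest kept signal of 70.5. All 3 sites of spi are filled, from 73.6 to 330, and ru has no bar, its nearest summits lying just beyond 500 bp. Both bars of S are the same peak.

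By position, 10 of the 21 kept summits were promoter summits (within 500 bp of any annotated TSS), 9 were intronic and 2 intergenic. Over all 3590 kept summits the shares were 60.8% promoter, 26.8% intronic and 10% intergenic. Of the 21, 11 lay in the span of the gene itself, 15 were nearest to a TSS of the gene itself among protein-coding genes, and 8 were within 500 bp of it. The strongest peaks were of both kinds: that of spi was at a promoter, and those of aos and S were in introns more than 3 kb from the TSS. These and the second peak of S were the 4 narrow ones of the 21, at 157 to 224 bp, while the other 17 were 396 bp wide, as were 3123 of all 3590. Over all kept peaks, the 464 narrower than 396 bp had a median signal of 269 and the 3126 others, of that width or wider, 98.7.

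Replicate 2 gave the higher signal at 15 of 21 member peaks and at 74.6% of the 3585 kept peaks matched in both. The median log2 ratio of replicate 2 to replicate 1 was 0.25 over the member peaks, from -0.47 to 1.08, and 0.28 over all kept peaks, with an SD of 0.51 across peaks. Of the 21, 14 were among the 3590 strongest of both replicates, as were 71.8% of all kept peaks. Their median signal was 124, beside 106 for all.

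Smad sites were found around the member summits about as often as around all kept summits. Motifs were sought on either strand in the 100 bp to each side of a summit, and the flanks were windows of the same width 600 bp to each side. GCCGNC, a GC-rich Mad site, was found at 3 of 21 member summits, beside 15.3% of all kept summits and 25.1% of flanks. GTCTG was found at 4 of 21, beside 18.1% of summits and 24.0% of flanks, and GGCGCC at 1, beside 4.57% and 3.90%. Of the member windows, 15 of 21 held none of these, as did 67.4% of all kept windows, and the strongest windows of spi, aos and S were among them. The 4-base Smad core AGAC, which every CAGAC contains, was found at 11 of 21, beside 53.4% and 59.1%.

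Among the motifs of other factors, TATCGATA was found at 2 of 21 member summits, beside 6.16% of all kept summits and 0.446% of flanks, and both matches were at the promoters of neighbours, Pep and mad2. GGTCACACT, the M1BP site, was found only at the promoter of S, beside 3.15% of all kept summits and 0.348% of flanks. GATAAG was found at 4 of 21, beside 11.2% of all kept summits and 9.39% of flanks. GAGAG, which the factor encoded by Trl binds, was also found at 4 of 21, beside 22.8% and 24.5%. CACATG, an E box that Twist binds, was found at 2 of 21 (7.99% of all kept summits, 9.64% of flanks). CCGGAA, the core site of ETS factors such as the pathway's own pnt and aop, was found at 1 of 21 (4.74% and 6.59%). TGACTCA, the AP-1 site, was found at 1 of 21 (1.84% and 1.96%) and CAGGTA, the site of Zelda, at 0 of 21 (4.04% and 5.07%). Counts of this size over 21 windows were not tested.

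Of 30 further genes, among them relatives of the members, adaptors, the Ras and MAP kinase cascade and its transcription factors, 19 (63.3%) held a kept summit, beside the 45.8% of all protein-coding genes. Genes of like length are the nearer background: with all genes cut into 10 classes of equal size by span, and each of the 30 given the share of its class, the mean share was 55.9%. With 30 genes, 63.3% is close to that. The 30 genes had 0.581 kept summits per 10 kb, between the members and the genes of the span range. That range was set by the members, and the density of the 30 was not matched for length. In 15 of the 19 at least 1 kept summit was nearest to a TSS of the gene itself. The strongest of these stood 123 bp upstream of the TSS of Shc, which encodes an adaptor of activated receptors, at 605 (259 and 344 in the replicates). Raf, the kinase below Ras, had 449, with 178 and 273 in the replicates. edl, which encodes a regulator of the pathway's ETS factors, had 418 (194 and 222), and RasGAP1, which turns Ras off, had 371 (150 and 221). All 4 were stronger than the best member peak.

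Of the 4 other Rhomboid genes, stet alone had one, 579 bp upstream of its TSS with a signal of 104, for which the replicates differed widely (27.2 and 78.2). rho-4, rho-5 and rho-6 reached at most 47.8 in the pooled list. Of the 5 other kekkon genes, kek4 had one of 139 (66.2 and 71.4) and kek5 one of 80.6 (44.3 and 32.8), while kek2, kek3 and kek6 had none. grk, the ligand gene of the ovary, reached 41.2 in the pooled list. rl, the MAP kinase gene, had no peak there at all.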

How the data were processed

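Mad-eGFP chromatin immunoprecipitation was done in 2 replicates. The signal of each peak is the value in the lists the authors deposited. The deposited text files state that the lists come from dm6 alignments of 1 or both replicates with a control, and the kept list is named as passing a threshold on the irreproducible discovery rate. Aligner, caller and depth: not given in the sources used here. Control data and dm3 lists were not used.

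Gene spans and TSSs came from Ensembl release 115 (BDGP6, dm6 coordinates) without transposable elements, and sequence from RefSeq release 6. Every peak lay within the lengths of the 6 arms. Summits were assigned to genes with Python 3.11.15, pandas 2.3.3 and NumPy 2.4.6, and the assignment, matching and motif search were tested on simulated data. Replicate peaks were matched by an overlap of at least 1 bp and the nearest summit.

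There was 1 group and no second condition, so no test was made. The members and lists were chosen with earlier results of these data known. All 10 members are named, with the neighbours nearest to their summits and, of the 30 further pathway genes, the 4 with the strongest peak nearest to their own TSS. Further names were picked with their values in view. Alternatives were other span extensions, peak overlap, the nearest TSS, 500 bp around a TSS, the 1000 strongest peaks, each replicate alone and other motif windows.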

Additional observations from a re-analysis of the deposited data

How the results depend on the processing

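The count of 7 members with a kept summit was 6 to 7 with spans not extended or extended by 1 or 10 kb, by peak overlap, by the nearest TSS and in the 1000 strongest peaks, and 8 to 9 in the lists of single replicates. Within 500 bp of an own TSS it was 4. The 21 summits became 11 in the spans without extension, 8 within 500 bp of an own TSS and 8 in the 1000 strongest peaks, and 19 to 23 in single replicates. The 19 further pathway genes became 10, 10 and 11 in that order. These are narrower rules by construction. The median rank of the strongest summit, over the 7 members with one, was at 20.3% of the kept peaks, and 16.8 to 27.0% by single replicates. That of ru moved from 34.2% to 53.0% without replicate 2, and that of aos from 4.51% to 5.35%. The 34 pairs of a summit and a motif became 14 with a window of 50 bp to each side and 59 with 200 bp, as the length searched changes. No paired analysis was possible because there is 1 group. Depth is not given, so whether the peaks of rho and Egfr just below the threshold would be kept at another depth was not tested.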
